A study of Homo sapiens with 9 samples.

Results

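The genes described here serve the unfolded protein response and the folding of proteins in the endoplasmic reticulum (ER). They are 35 genes taken by symbol from a list of sensors, chaperones, disulfide enzymes, degradation factors and translocation factors, and all 35 were found among the 32906 genes listed for each library. The members were chosen with earlier results of these data known, so counts of them are descriptive only. Cells labelled Huh7, an established human hepatocellular carcinoma line, were transfected for 48 hours with a Scramble control siRNA (Scramble), or with 1 of a pair of siRNAs against KDM4C, a histone lysine demethylase (Si-KDM4C#1 and Si-KDM4C#2). RNA was sequenced from 3 libraries of each group, 9 in all, with no further treatment in any group. The labels do not say whether the libraries of a group came from separate cultures, so the p-values measure only the spread between these libraries. In bulk RNA, fewer cells of a kind and less RNA per cell cannot be told apart.

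Proteins that enter the secretory pathway fold inside the ER with the help of chaperones and of enzymes that form disulfide bonds, and those that fail to fold are passed back to the cytosol and degraded. When unfolded proteins build up, the sensors IRE1 (encoded by ERN1), ATF6 and PERK (encoded by EIF2AK3) signal to the nucleus through spliced XBP1, cleaved ATF6 and ATF4. Cleaved ATF6 and XBP1 act on short elements in the promoters of ER chaperone genes, and liver cells, which secrete much protein, depend strongly on this system.

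Promoter sequences of the members are shown first, since several of these genes share a known control element. In windows of 300 bases, from 250 before to 50 after the RefSeq start (GRCh38.p14), 31 of the 35 members had a sequence, and both strands were searched. The ER stress response element ERSE, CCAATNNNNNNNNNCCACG, was found in the windows of 25 of 27305 genes (0.0916%), and 8 of these 25 were members, namely HSPA5, HSP90B1, CALR, CANX, PDIA6, ERO1B, XBP1 and CRELD2. The related element ERSE-II, ATTGGNCCACG, was found for 19 of the 27305 genes (0.0696%), and 3 of these were members, namely HERPUD1, HYOU1 and SDF2L1. The element UPRE, TGACGTGG, was found for 253 genes (0.927%), of which HYOU1, where it overlaps an ERSE-II match, was the only member. Only exact matches were searched, so elements that depart from these letters are not counted or marked. The 250 bases before the start of HSPA5, which encodes the central ER chaperone BiP, are at chr9:125241344-125241593 on the minus strand. The fixed letters of the exact ERSE match are in capitals.
HSPA5: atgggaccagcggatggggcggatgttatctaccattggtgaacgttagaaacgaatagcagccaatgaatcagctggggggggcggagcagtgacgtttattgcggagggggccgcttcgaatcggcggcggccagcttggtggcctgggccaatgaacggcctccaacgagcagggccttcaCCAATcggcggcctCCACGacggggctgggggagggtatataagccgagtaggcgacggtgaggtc

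Sites of further members whose mRNA moved in different directions are given below with 5 or more bases on each side, read in the direction of the element, with the element's fixed letters in capitals. HSP90B1 has an ERSE match on each strand, at chr12:103930211-103930239 (plus strand) and chr12:103930316-103930344 (minus strand). The matches of CANX (chr5:179698773-179698801, plus strand), CALR (chr19:12938379-12938407, minus strand) and CRELD2 (chr22:49918549-49918577, minus strand) are of the same element. Those of SDF2L1 (chr22:21642105-21642133, minus strand) and HYOU1 (chr11:119057371-119057399, plus strand) are of ERSE-II. A further ERSE-II match of HYOU1, at chr11:119057265-119057293 (plus strand), is not shown.
HSP90B1 plus strand: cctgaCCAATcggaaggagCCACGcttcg
HSP90B1 minus strand: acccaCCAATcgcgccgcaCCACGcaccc
CANX: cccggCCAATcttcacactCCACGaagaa
CALR: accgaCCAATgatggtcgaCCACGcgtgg
CRELD2: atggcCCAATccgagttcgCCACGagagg
SDF2L1: agggttttgATTGGtCCACGcttccgagg
HYOU1: cggcctgggATTGGaCCACGtcacggggc
A match describes letters in a window, and no binding was measured. Of the 11 members with either element, Si-KDM4C#1 raised 2 over Scramble and lowered 5, and 4 did not pass the test, where 31.7% of all genes tested rose and 33.9% fell. Si-KDM4C#2 raised 3 of the 11 and lowered 8, where 34.4% of all genes tested rose and 25.0% fell. Of the 20 members with a window and neither element, Si-KDM4C#1 raised 9 and lowered 8, and Si-KDM4C#2 raised 2 and lowered 14.

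Levels are given as FPKM, fragments of an mRNA scaled to the length of its exons and to the depth of the library. Differences are on the log2(FPKM + 1) scale, with 95% confidence intervals and p-values from limma-trend, fitted to the 14363 genes past a low filter in all 9 libraries. Fold changes are of FPKM + 1 too, and are smaller than ratios of FPKM, most of all at low levels. The p-values were adjusted over these genes after Benjamini and Hochberg, and a gene is said to rise or fall where the adjusted p was under 0.05. The libraries held 14597503 to 18058557 fragments, with ranges that overlapped between all groups. KDM4C, the target, was at 4.57 to 4.88 FPKM in Scramble, 1.102 to 1.18 with Si-KDM4C#1 and 0.256 to 0.349 with Si-KDM4C#2 (two-sided exact permutation test of the 6 knockdown against the 3 Scramble libraries, p = 0.0238, the smallest it can give). Of 12 hepatocyte markers 9 were listed, with AFP, APOA1 and HNF4A, and no library had any of them above 0.495 FPKM, while the epithelial keratin KRT8 reached 205 FPKM and the mesenchymal VIM 66.7 FPKM. Of the 4 listed epithelial markers 2 were under 1 FPKM in every library, as were 2 of the 5 listed mesenchymal and fibroblast markers. The name Huh7 is that of the labels, and the hepatocyte markers did not bear it out.

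Of the 35 members, 34 passed the filter of a mean of 1 FPKM in at least 1 group. DERL3, a degradation factor of secretory cells, was listed at 0 to 0.0508 FPKM and was not tested. In Scramble the highest members were HSPA5 at 357 ± 12.1 FPKM, CANX at 339 ± 14.02, HSP90B1 at 278 ± 11.8 and CALR at 266 ± 4.85 (SD, n = 3 each), of which HSP90B1 and CALR overlapped in their libraries and the others did not. The lowest of the tested members were the sensors ERN1 at 2.36 ± 0.173 FPKM and EIF2AK3 at 6.22 ± 0.381 and the oxidase ERO1B at 3.80 ± 0.353 (SD, n = 3 each).

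With Si-KDM4C#1, 11 of the 34 tested members rose and 15 fell, where 31.7% of all genes tested rose and 33.9% fell (65.7% in all). A rise over 2-fold was seen for SDF2L1 (4.04% of all genes tested) and a fall over 2-fold for HSP90B1, HSPA5 and SSR1 (4.83%), that is 4 of 34 where 8.87% of all genes tested passed that limit. With Si-KDM4C#2, 5 members rose and 24 fell, where 34.4% of all genes tested rose and 25.0% fell (59.4% in all). No member rose over 2-fold (2.6% of all genes tested did), and DERL1 alone fell over 2-fold (2.3% of all genes tested, and 4.89% in either direction). With a limit of 1.5-fold, 8 members changed with Si-KDM4C#1 (28.0% of all genes tested) and 10 changed with Si-KDM4C#2 (20.1%). The last count was 5 with the adjustment for GC content described below (17.5% of all genes tested) and 15 with limma voom on recovered fragments (27.8%). The median log2 change of the members was -0.092 for the first siRNA and -0.36 for the second, and that of all genes tested was -0.032 and 0.057. The comparisons share the Scramble libraries.

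Both siRNAs together moved 13 members down, among them HSPA5, HSP90B1, CANX, DNAJB11, DNAJC3, SEL1L, EDEM1 and SSR1 (15.2% of all genes tested fell with both). They moved 4 members up, namely SDF2L1, ERO1A, CALR and CREB3L2 (19.4% of all genes tested rose with both). A further 5 members, EIF2AK3, P4HB, PDIA4, EDEM2 and SEC61A1, rose with Si-KDM4C#1 and fell with Si-KDM4C#2 (4.11% of all genes tested), and no member fell with Si-KDM4C#1 and rose with Si-KDM4C#2 (5.66% of all genes tested). All 6 knockdown libraries lay above the 3 Scramble libraries for 5 members (20.7% of all genes tested) and below them for 13 (17.5%), together 18 of 34 (38.2% of all genes tested). The GC content of the members' exons moved with these differences, with Pearson's r across 34 members of 0.51 for Si-KDM4C#1 and 0.39 for Si-KDM4C#2, against 0.32 and 0.31 across 14343 genes. These points share their libraries, and the part of GC content in the differences was not tested. After each library was adjusted for GC content, Si-KDM4C#1 raised 10 members and lowered 13, and Si-KDM4C#2 raised 4 and lowered 25. Of the 14343 genes in that fit, 4832 rose and 4571 fell with Si-KDM4C#1, and 4204 rose and 4073 fell with Si-KDM4C#2.

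**Figure D1:**
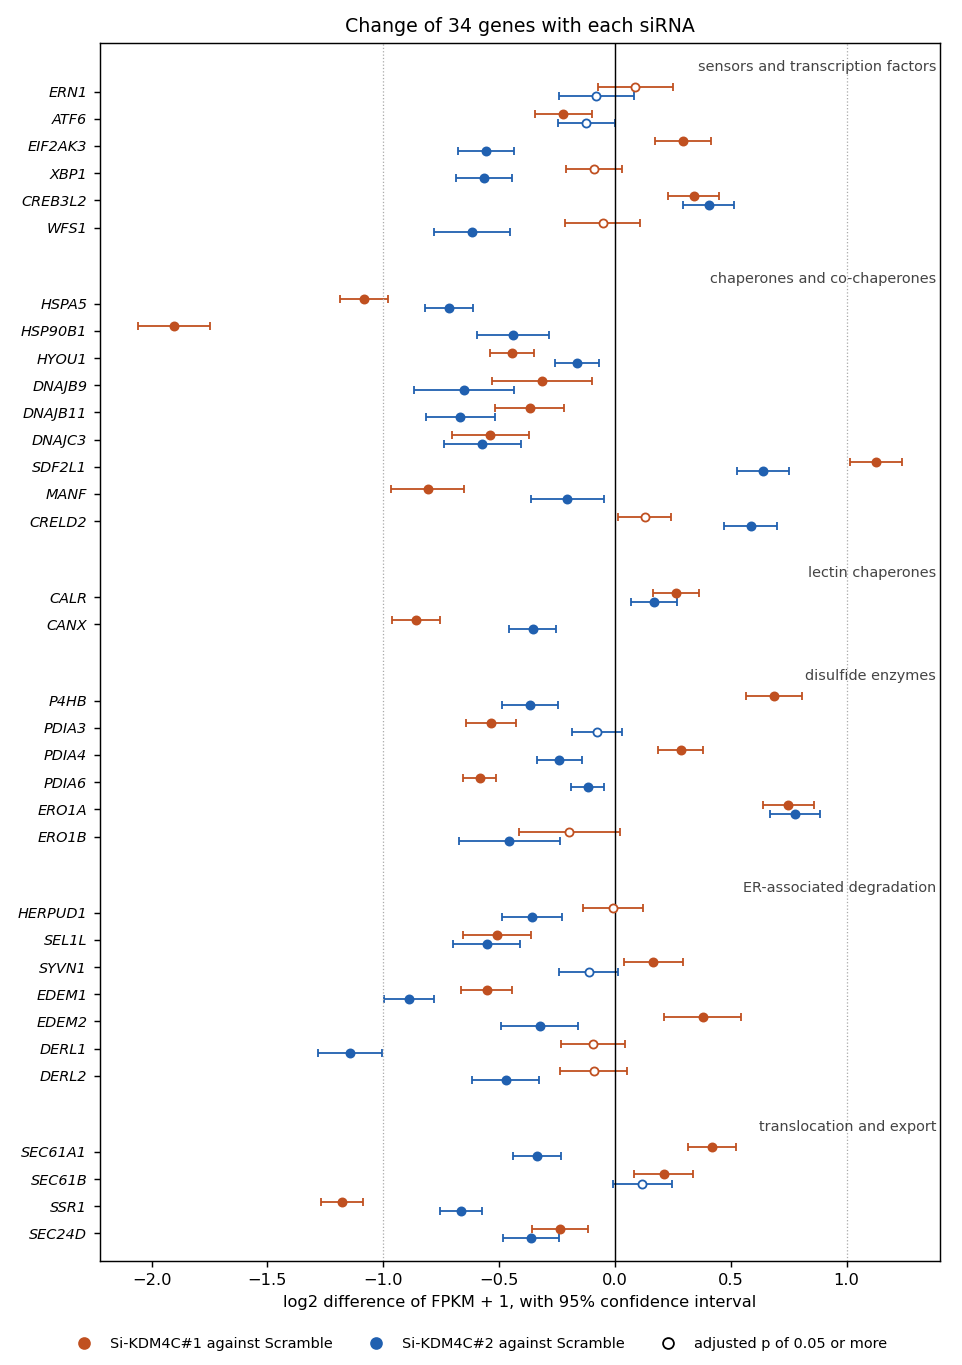
Log2 difference of FPKM + 1 from Scramble (horizontal axis, limma-trend, bars are 95% confidence intervals) for the 34 tested members, grouped by role, with Si-KDM4C#1 in orange and Si-KDM4C#2 in blue, and dotted lines at a 2-fold change. Open circles did not pass the test, and HSP90B1 lies farthest left at -1.90 with Si-KDM4C#1 and -0.44 with Si-KDM4C#2.

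Among the sensors and transcription factors, 1 of the 3 sensor genes, EIF2AK3, passed the test with both siRNAs. EIF2AK3, the gene of the sensor kinase PERK (ENSG00000172071, chr2:88556741-88627576, minus strand), was at 6.56, 6.31 and 5.81 FPKM in Scramble, 8.12, 7.73 and 7.72 under Si-KDM4C#1 and 3.76, 3.997 and 3.97 under Si-KDM4C#2. The groups did not overlap, with Si-KDM4C#1 above and Si-KDM4C#2 below Scramble. Its log2 difference from Scramble was 0.29 with Si-KDM4C#1 (95% interval 0.18 to 0.41, adjusted p = 0.000816) and -0.56 with Si-KDM4C#2 (-0.68 to -0.44, adjusted p = 1.65e-05). ERN1, the gene of the sensor kinase and endonuclease IRE1, was at 2.16 to 2.49 FPKM in Scramble, 2.42 to 2.81 with Si-KDM4C#1 and 2.13 to 2.23 with Si-KDM4C#2, and was the only member that passed neither comparison with Scramble in the fit as described (log2 differences 0.09 and -0.08, 95% intervals -0.07 to 0.25 and -0.24 to 0.08). For Si-KDM4C#1 it passed with quantile normalization and with limma voom (0.21 and 0.20, adjusted p = 0.0193 and 0.0412), and between the siRNAs, at -0.17 (adjusted p = 0.0645), it passed in 4 alternatives (-0.37 to -0.22, adjusted p = 0.000322 to 0.0162). ATF6, the sensor that is cleaved to a transcription factor, fell slightly with Si-KDM4C#1, from 8.96 to 10.1 FPKM in Scramble to 7.79 to 8.34 (log2 difference -0.22, adjusted p = 0.00497), a call that was lost with median-ratio size factors (-0.15, adjusted p = 0.0527) and with the adjustment for GC content (-0.02, adjusted p = 0.692). With Si-KDM4C#2 it was at 8.28 to 9.01 FPKM (log2 difference -0.12, adjusted p = 0.0763), and it passed there with quantile normalization, size factors, limma voom and without Scramble replicate 1 (-0.21 to -0.17, adjusted p = 0.00772 to 0.0359).

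XBP1, whose mRNA is spliced by IRE1 into the form for an active transcription factor, was at 46.0, 49.3 and 47.2 FPKM in Scramble, 43.9, 45.3 and 44.5 under Si-KDM4C#1 and 30.3, 34.8 and 30.6 under Si-KDM4C#2. The libraries of both siRNAs lay below those of Scramble, those of Si-KDM4C#2 much farther (log2 difference -0.56, adjusted p = 1.64e-05, against -0.09, adjusted p = 0.168, with Si-KDM4C#1). The difference of XBP1 with Si-KDM4C#1 was -0.26 with quantile normalization and passed the test there (adjusted p = 0.00295). FPKM per gene do not tell spliced from unspliced XBP1, so the activity of IRE1 was not measured. WFS1, a membrane protein of the ER that is lost in Wolfram syndrome, was at 10.0 to 12.3 FPKM in Scramble, 9.82 to 11.1 with Si-KDM4C#1 and 6.51 to 6.91 with Si-KDM4C#2, with a fall for Si-KDM4C#2 (log2 difference -0.62, adjusted p = 6.22e-05). With Si-KDM4C#1 the difference of WFS1 was -0.05 (adjusted p = 0.544), and -0.24 with the adjustment for GC content (adjusted p = 0.00313). CREB3L2, a transcription factor cleaved in the manner of ATF6, rose with both, from 11.8 to 12.4 FPKM to 14.5 to 16.3 and 16.2 to 16.6 (log2 differences 0.34 and 0.40, adjusted p = 0.00017 and 7.1e-05).

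Of the 9 chaperones and co-chaperones, 7 fell with Si-KDM4C#1 and 7 with Si-KDM4C#2 (33.9% and 25.0% of all genes tested fell), and the HSP70 and HSP90 chaperones of the ER were among those that fell with both. HSPA5 (ENSG00000044574, chr9:125234853-125241330, minus strand), whose promoter is shown above, was at 349, 371 and 351 FPKM in Scramble, 172, 169.8 and 161 under Si-KDM4C#1 and 206, 229 and 216 under Si-KDM4C#2. Every knockdown library was below every Scramble library, and the Si-KDM4C#1 libraries were the lowest. This was 2.12-fold lower with Si-KDM4C#1 (log2 difference -1.08, 95% interval -1.19 to -0.98, adjusted p = 6.79e-08) and 1.64-fold lower with Si-KDM4C#2 (-0.72, -0.82 to -0.61, adjusted p = 1.46e-06). HSP90B1, the gene of the HSP90 chaperone GRP94 (ENSG00000166598, chr12:103930107-103953645, plus strand), was at 264, 284 and 285 FPKM in Scramble, 80.3, 73.6 and 67.2 under Si-KDM4C#1 and 192, 218 and 204 under Si-KDM4C#2. Its fall with Si-KDM4C#1 was the largest change among the members, 3.74-fold (log2 difference -1.90, adjusted p = 2.7e-08), against 1.36-fold with Si-KDM4C#2 (-0.44, adjusted p = 0.000411). As a ratio of FPKM within a library, HSP90B1 to HSPA5 was 0.757 to 0.812 in Scramble, 0.416 to 0.466 for Si-KDM4C#1 and 0.928 to 0.951 for Si-KDM4C#2, on either side of Scramble. HSP90B1 shares exon sequence with C12orf73 on the opposite strand, which reached 7.02 FPKM.

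HYOU1, the large HSP70-like exchange factor of BiP, fell from 30.4 to 33.4 FPKM in Scramble to 22.9 to 23.7 with Si-KDM4C#1 and 27.5 to 29.3 with Si-KDM4C#2 (log2 differences -0.44 and -0.16, adjusted p = 1.13e-05 and 0.00846). MANF, a secreted factor that binds BiP, fell from 26.1 to 29.5 FPKM to 13.8 to 16.6 and 22.7 to 24.8 (-0.81 and -0.21, adjusted p = 5.52e-06 and 0.0294). The smaller of these changes of MANF did not pass the test without Scramble replicate 2 or 3, without Si-KDM4C#2 replicate 1 or 3, or with no filter on low genes (log2 differences -0.21 to -0.16, adjusted p = 0.0557 to 0.106).

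The J-domain co-chaperones, which feed unfolded clients to BiP, fell with both siRNAs. DNAJB11 was at 11.8, 13.0 and 12.8 FPKM in Scramble, 8.94, 10.1 and 9.46 under Si-KDM4C#1 and 6.87, 7.96 and 7.78 under Si-KDM4C#2 (log2 differences -0.37 and -0.67, adjusted p = 0.000827 and 2.11e-05). DNAJB9 was at 7.94 to 10.2 FPKM in Scramble, 6.54 to 8.10 with Si-KDM4C#1, which overlaps Scramble, and 5.14 to 5.84 with Si-KDM4C#2 (-0.31 and -0.65, adjusted p = 0.0159 and 0.000288). DNAJC3, which also inhibits PERK, was at 11.98 to 13.7 FPKM in Scramble, 7.83 to 8.90 with Si-KDM4C#1 and 7.48 to 8.95 with Si-KDM4C#2 (-0.54 and -0.57, adjusted p = 0.000132 and 0.00012). DNAJB11 shares exon sequence with TBCCD1, and DNAJB9 with PNPLA8 and THAP5, on the opposite strand and at like levels (up to 7.86, 9.65 and 6.12 FPKM). The library kit as named does not state strand, so that reads of such pairs may have been exchanged and both genes are uncertain. With the adjustment for GC content the differences of DNAJB11 and DNAJB9 with Si-KDM4C#1 were -0.10 and -0.09 and did not pass the test (adjusted p = 0.187 and 0.411). The call of DNAJB9 with Si-KDM4C#1 was also lost without Scramble replicate 1 or 2, without Si-KDM4C#1 replicate 1 and with median-ratio size factors (-0.24 to -0.28, adjusted p = 0.052 to 0.0619).

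Against these stood SDF2L1 and CRELD2. SDF2L1, a partner of BiP and DNAJB11 (ENSG00000128228, chr22:21642261-21644298, plus strand), was at 40.9, 38.5 and 40.9 FPKM in Scramble, 85.7, 89.6 and 91.0 under Si-KDM4C#1 and 64.0, 66.4 and 58.8 under Si-KDM4C#2. The groups did not overlap, and the rise was 2.19-fold with Si-KDM4C#1 (log2 difference 1.13, 95% interval 1.02 to 1.24, adjusted p = 7.76e-08) and 1.56-fold with Si-KDM4C#2 (0.64, 0.53 to 0.75, adjusted p = 4.37e-06). SDF2L1 had the highest GC content of the members (65.5%), and with the adjustment for GC content its differences were 0.81 and 0.26, both past the test. The ratio of SDF2L1 to HSPA5 within a library was 0.104 to 0.117 in Scramble, 0.497 to 0.564 for Si-KDM4C#1 and 0.273 to 0.310 for Si-KDM4C#2. CRELD2, a secreted disulfide isomerase-like protein, rose with Si-KDM4C#2, from 6.77, 6.37 and 6.72 FPKM in Scramble to 11.2, 10.0 and 10.1 (log2 difference 0.59, adjusted p = 9.21e-06). With Si-KDM4C#1 it was at 7.26, 7.48 and 7.24 FPKM (0.13, adjusted p = 0.0503), and the test was passed there with quantile normalization, size factors, a pseudocount of 0.1 and limma voom (0.14 to 0.21, adjusted p = 0.00525 to 0.0478. Its exons overlap those of ALG12 on the opposite strand, which was at up to 3.47 FPKM.

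**Figure D2:**
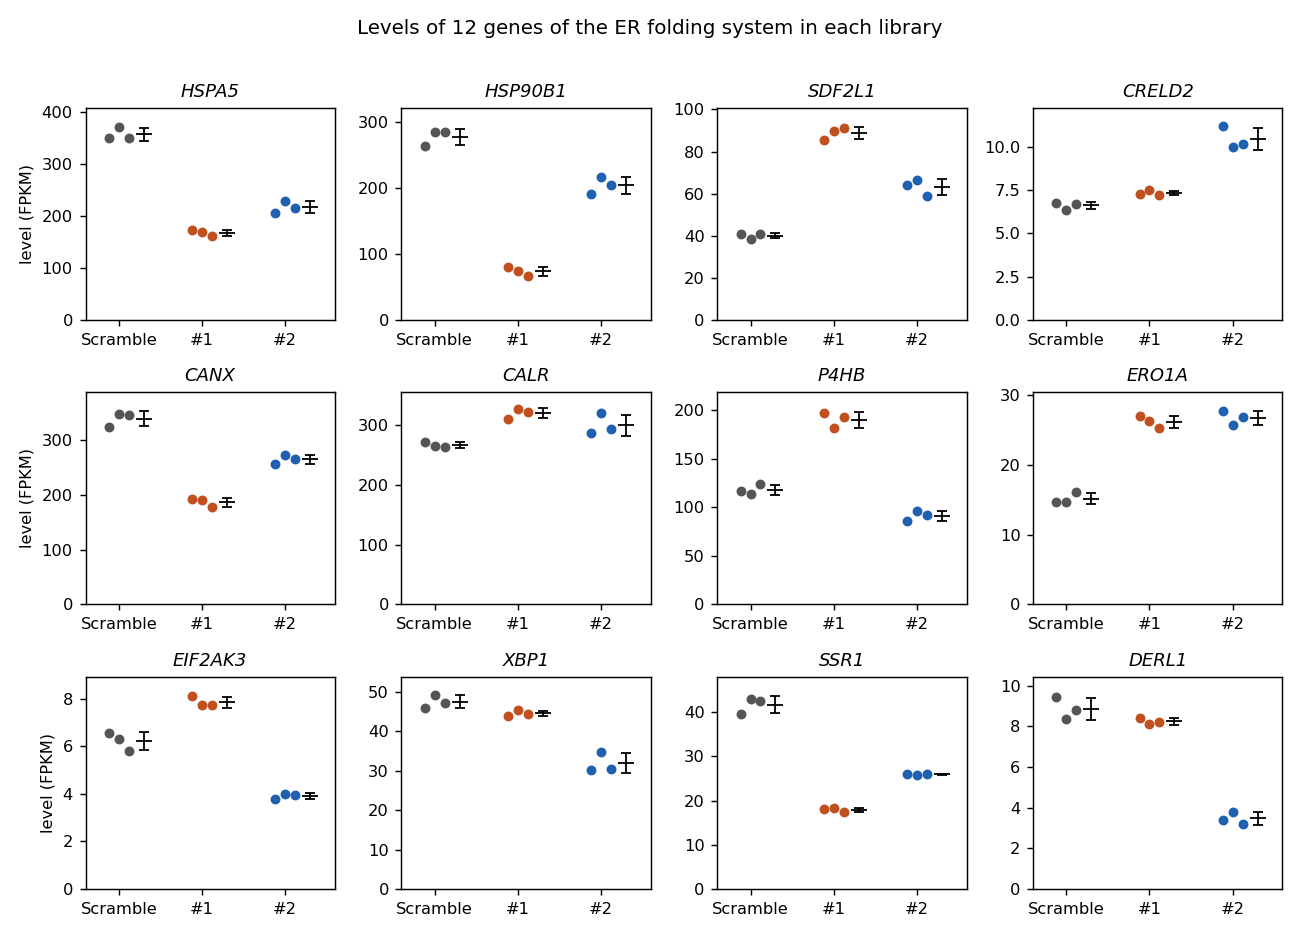
FPKM of 12 members (vertical axes, each from 0) in the 3 libraries of Scramble, Si-KDM4C#1 and Si-KDM4C#2, with the mean and SD beside the points. HSPA5, HSP90B1, CANX and SSR1 are lowest with Si-KDM4C#1, XBP1 and DERL1 are lowest with Si-KDM4C#2, and P4HB and EIF2AK3 lie above Scramble with Si-KDM4C#1 and below it with Si-KDM4C#2.

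The lectin chaperones, which hold glycoproteins through their sugar chains, moved in opposite directions with both siRNAs. The membrane-bound CANX (calnexin) was at 323, 348 and 346 FPKM in Scramble, 192, 190.4 and 177 under Si-KDM4C#1 and 256, 272 and 266 under Si-KDM4C#2 (log2 differences -0.86 and -0.35, adjusted p = 2.21e-07 and 0.000111). The soluble CALR (calreticulin) was at 272, 265 and 262 FPKM in Scramble, 310.3, 326 and 322 under Si-KDM4C#1 and 286, 319 and 293 under Si-KDM4C#2 (0.26 and 0.17, adjusted p = 0.000524 and 0.00895). CANX was below and CALR above Scramble in all 6 knockdown libraries. As a ratio of FPKM within a library, CALR to CANX was 0.758 to 0.841 in Scramble, 1.62 to 1.82 with Si-KDM4C#1 and 1.102 to 1.17 under Si-KDM4C#2. The rise of CALR with Si-KDM4C#2 did not pass the test with median-ratio size factors (0.11, adjusted p = 0.0765) or with the adjustment for GC content (0.03, adjusted p = 0.604).

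**Figure D3:**
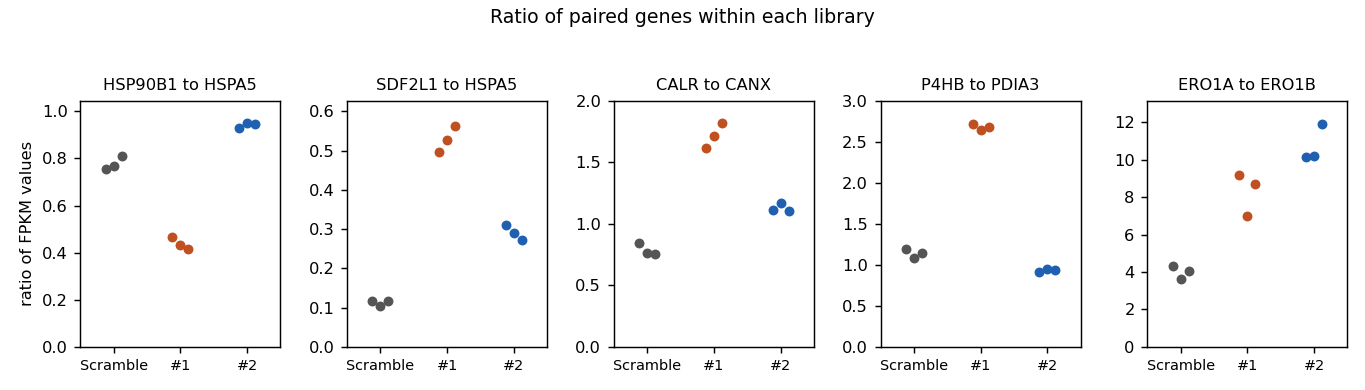
Ratio of the FPKM of paired genes within each library (vertical axes, each from 0), for Scramble, Si-KDM4C#1 and Si-KDM4C#2. HSP90B1 to HSPA5 is lower with Si-KDM4C#1 and higher with Si-KDM4C#2 than in Scramble, SDF2L1 to HSPA5, CALR to CANX and ERO1A to ERO1B are higher with both, and P4HB to PDIA3 is highest with Si-KDM4C#1.

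The enzymes of disulfide formation did not move as 1 group either. P4HB, the major protein disulfide isomerase (ENSG00000185624, chr17:81843159-81860694, minus strand), was at 117, 113 and 124 FPKM in Scramble, 197, 181 and 193 under Si-KDM4C#1 and 85.6, 96.0 and 92.3 under Si-KDM4C#2. It was 1.61-fold higher with Si-KDM4C#1 (log2 difference 0.69, adjusted p = 2.6e-06) and 1.29-fold lower with Si-KDM4C#2 (-0.37, adjusted p = 0.000254), with no overlap among the 3 groups. PDIA4 had the same signs, with 64.6 to 67.7 FPKM in Scramble, 79.6 to 81.3 with Si-KDM4C#1 and 53.2 to 59.1 with Si-KDM4C#2 (0.28 and -0.24, adjusted p = 0.000271 and 0.00103), and its rise did not pass the test with quantile normalization (0.09, adjusted p = 0.098).

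PDIA6 fell from 100.3, 105 and 100.4 FPKM in Scramble to 67.7, 67.9 and 67.4 with Si-KDM4C#1 and to 91.9, 96.0 and 93.4 with Si-KDM4C#2 (log2 differences -0.58 and -0.12, adjusted p = 2.85e-07 and 0.01). PDIA3, which works with the lectin chaperones, fell with Si-KDM4C#1, from 97.3 to 108 FPKM to 68.5 to 72.5 (-0.53, adjusted p = 6.81e-06), and was at 93.4 to 101 FPKM with Si-KDM4C#2 (-0.08, adjusted p = 0.192), where it passed with quantile normalization, limma voom and without Scramble replicate 1 (-0.17 to -0.12, adjusted p = 0.0157 to 0.0488). The 4 isomerases thus differed in direction with Si-KDM4C#1, with P4HB and PDIA4 up and PDIA3 and PDIA6 down, and the ratio of P4HB to PDIA3 within a library was 1.08 to 1.20 in Scramble, 2.65 to 2.72 with Si-KDM4C#1 and 0.916 to 0.9496 with Si-KDM4C#2.

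ERO1A, the oxidase that recharges the isomerases, rose with both siRNAs. It was at 14.8, 14.6 and 16.1 FPKM in Scramble, 27.0, 26.2 and 25.3 under Si-KDM4C#1 and 27.7, 25.7 and 26.8 under Si-KDM4C#2 (1.68-fold and 1.71-fold, log2 differences 0.75 and 0.78, adjusted p = 7.87e-07 and 1.14e-06). Its paralog ERO1B was at 3.40 to 4.05 FPKM in Scramble, 2.91 to 3.76 with Si-KDM4C#1 (-0.20, adjusted p = 0.0999, and -0.29, adjusted p = 0.0209, without Si-KDM4C#1 replicate 2) and 2.25 to 2.73 with Si-KDM4C#2, where it fell (-0.46, adjusted p = 0.00265). ERO1A to ERO1B was 3.62 to 4.34 in Scramble, 6.98 to 9.19 for Si-KDM4C#1 and 10.1 to 11.9 for Si-KDM4C#2.

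Of the 7 tested members of ER-associated degradation, 2 rose and 2 fell with Si-KDM4C#1 (31.7% and 33.9% of all genes tested), and none rose and 6 fell with Si-KDM4C#2 (34.4% and 25.0%). DERL1, a channel subunit for the export of misfolded proteins, was at 9.44, 8.37 and 8.79 FPKM in Scramble, 8.41, 8.10 and 8.19 under Si-KDM4C#1 and 3.40, 3.80 and 3.20 under Si-KDM4C#2. The Si-KDM4C#2 libraries stood apart, 2.21-fold lower than Scramble on the FPKM + 1 scale (log2 difference -1.14, 95% interval -1.28 to -1.004, adjusted p = 4.84e-07). The mean FPKM of DERL1 with Si-KDM4C#2 was 0.391 of that in Scramble. Its exons overlap those of TBC1D31 on the opposite strand, which was at up to 3.30 FPKM, so part of these reads may belong there. DERL2 was at 11.2 to 12.1 FPKM in Scramble, 9.87 to 11.9 with Si-KDM4C#1 and 7.73 to 8.40 with Si-KDM4C#2 (-0.09, adjusted p = 0.239, and -0.47, adjusted p = 0.000171). The former was -0.15 (adjusted p = 0.0495) without Si-KDM4C#1 replicate 3, and DERL2 overlaps MIS12, at up to 17.5 FPKM, in the same way.

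EDEM1, a mannosidase-like lectin that marks glycoproteins for degradation, was at 13.9, 13.4 and 12.7 FPKM in Scramble, 9.25, 8.66 and 8.45 under Si-KDM4C#1 and 6.72, 6.78 and 6.76 under Si-KDM4C#2, a fall with both (log2 differences -0.55 and -0.89, adjusted p = 6.03e-06 and 5.12e-07). Its relative EDEM2 was at 14.8 to 16.5 FPKM in Scramble, 18.7 to 21.96 with Si-KDM4C#1 and 11.1 to 13.1 with Si-KDM4C#2, a rise and a fall (0.38 and -0.33, adjusted p = 0.00132 and 0.004). SEL1L, the scaffold of the ubiquitin ligase SYVN1 (HRD1), fell with both siRNAs, from 15.2 to 16.9 FPKM to 9.86 to 11.5 and 10.2 to 11.02 (-0.51 and -0.55, adjusted p = 7.76e-05 and 6.01e-05). SYVN1 itself was at 13.8 to 16.2 FPKM in Scramble, 16.2 to 16.9 with Si-KDM4C#1 (0.17, adjusted p = 0.0266) and 13.2 to 13.6 with Si-KDM4C#2 (-0.11, adjusted p = 0.114), and it overlaps exons of FAU and MRPL49, at up to 141 and 31.6 FPKM, so that it is uncertain. The small rise of SYVN1 did not pass the test without Scramble replicate 2 or 3, without Si-KDM4C#1 replicate 1 or 3, with the libraries of the comparison alone, with no filter, with quantile normalization or with the adjustment for GC content (0.03 to 0.17, adjusted p = 0.053 to 0.521), and its difference with Si-KDM4C#2 did pass with quantile normalization, size factors, limma voom and the adjustment for GC content (-0.29 to -0.16, adjusted p = 0.000343 to 0.02). HERPUD1, which gathers the ligase complex, was at 24.8 to 27.8 FPKM in Scramble, 26.3 to 26.6 with Si-KDM4C#1 and 19.5 to 22.3 with Si-KDM4C#2, with a fall for Si-KDM4C#2 (-0.01, adjusted p = 0.905, and -0.36, adjusted p = 0.000494). With quantile normalization HERPUD1 also fell with Si-KDM4C#1 (-0.18, adjusted p = 0.0177).

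The members that carry proteins into and out of the ER were led by SSR1, the alpha subunit of the translocon-associated complex (ENSG00000124783, chr6:7268306-7347446, minus strand). It was at 39.7, 43.1 and 42.6 FPKM in Scramble, 18.1, 18.3 and 17.3 under Si-KDM4C#1 and 26.0, 25.9 and 26.1 under Si-KDM4C#2, with no overlap among the groups. The fall was 2.26-fold with Si-KDM4C#1 (log2 difference -1.18, 95% interval -1.27 to -1.09, adjusted p = 2.07e-08) and 1.58-fold with Si-KDM4C#2 (-0.66, -0.76 to -0.57, adjusted p = 9.99e-07). With the adjustment for GC content the fall with Si-KDM4C#1 was -0.96, just under 2-fold. Exons of SEC61A1 overlap those of RUVBL1 on the opposite strand, which was at up to 14.5 FPKM. SEC61A1, the pore of the translocon, was at 66.2 to 72.6 FPKM in Scramble, 88.0 to 96.5 with Si-KDM4C#1 and 54.2 to 55.7 with Si-KDM4C#2 (0.42 and -0.34, adjusted p = 2.94e-05 and 0.000177). Its small partner SEC61B was at 36.9 to 42.8 FPKM in Scramble, 44.2 to 47.6 with Si-KDM4C#1 and 41.7 to 44.7 with Si-KDM4C#2 (0.21, adjusted p = 0.00845, and 0.12, adjusted p = 0.0975), and with quantile normalization the former was 0.04 (adjusted p = 0.549), while the latter was 0.18 (adjusted p = 0.0124) without Scramble replicate 1. SEC24D, a cargo adaptor of the vesicles that leave the ER, fell with both siRNAs, from 6.47 to 7.15 FPKM to 5.53 to 5.81 and 4.81 to 5.28 (-0.24 and -0.36, adjusted p = 0.00324 and 0.000301).

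Whether the siRNAs differed from each other was tested directly, as Si-KDM4C#2 minus Si-KDM4C#1. With Si-KDM4C#2, 9 of the 34 members stood higher and 16 stood lower (35.9% and 26.5% of all genes tested, 62.4% in all). Over 2-fold, 1 was higher (4.41%) and 2 were lower (2.49%), together 3 (6.91%), and over 1.5-fold 7 differed (23.4%). HSP90B1 was 2.75-fold higher with Si-KDM4C#2 (log2 difference 1.46, 95% interval 1.31 to 1.62, adjusted p = 1.58e-07), P4HB was 2.08-fold lower (-1.05, -1.17 to -0.93, adjusted p = 2.32e-07) and DERL1 2.07-fold lower (-1.05, -1.19 to -0.91, adjusted p = 5.88e-07). The median log2 difference of the members was -0.15 and that of all genes tested 0.082, which median-ratio size factors moved to -0.25 and -0.021. The chaperones and isomerases HSPA5, HSP90B1, HYOU1, MANF, CANX, PDIA3 and PDIA6 were nearer to Scramble with Si-KDM4C#2, by 0.28 to 1.46, while the co-chaperones DNAJB9 and DNAJB11 (-0.34 and -0.30) and CRELD2 (0.46) were farther from it. All 6 tested degradation factors that differed were lower with it, by -0.71 to -0.28 apart from DERL1.

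For members whose difference between the siRNAs did not pass the test, its 95% interval was -0.08 to 0.14 for ERO1A, -0.04 to 0.17 for CREB3L2, -0.20 to 0.13 for DNAJC3 and -0.19 to 0.10 for SEL1L. Alternatives gave calls for some of them. SEL1L was lower with Si-KDM4C#2 with size factors, limma voom and the adjustment for GC content (-0.20 to -0.17, adjusted p = 0.0103 to 0.0429), and DNAJC3 with the last of these (-0.18, adjusted p = 0.0341). CALR, SEC61B and SEC24D also became lower with Si-KDM4C#2 in 3 or 4 alternatives each (-0.27 to -0.14, adjusted p = 4.11e-05 to 0.0463), for CALR also without Si-KDM4C#2 replicate 2, whereas ERO1A and CREB3L2 gained no such call. The KDM4C mRNA was lower with Si-KDM4C#2 than with Si-KDM4C#1, at means of 0.287 and 1.14 FPKM, a ratio of 0.252. On the log2(FPKM + 1) scale the difference was -0.73 (adjusted p = 2.4e-05), made smaller by the 1 added at such low levels. The part of KDM4C in the differences between the siRNAs was not tested.

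**Figure D4:**
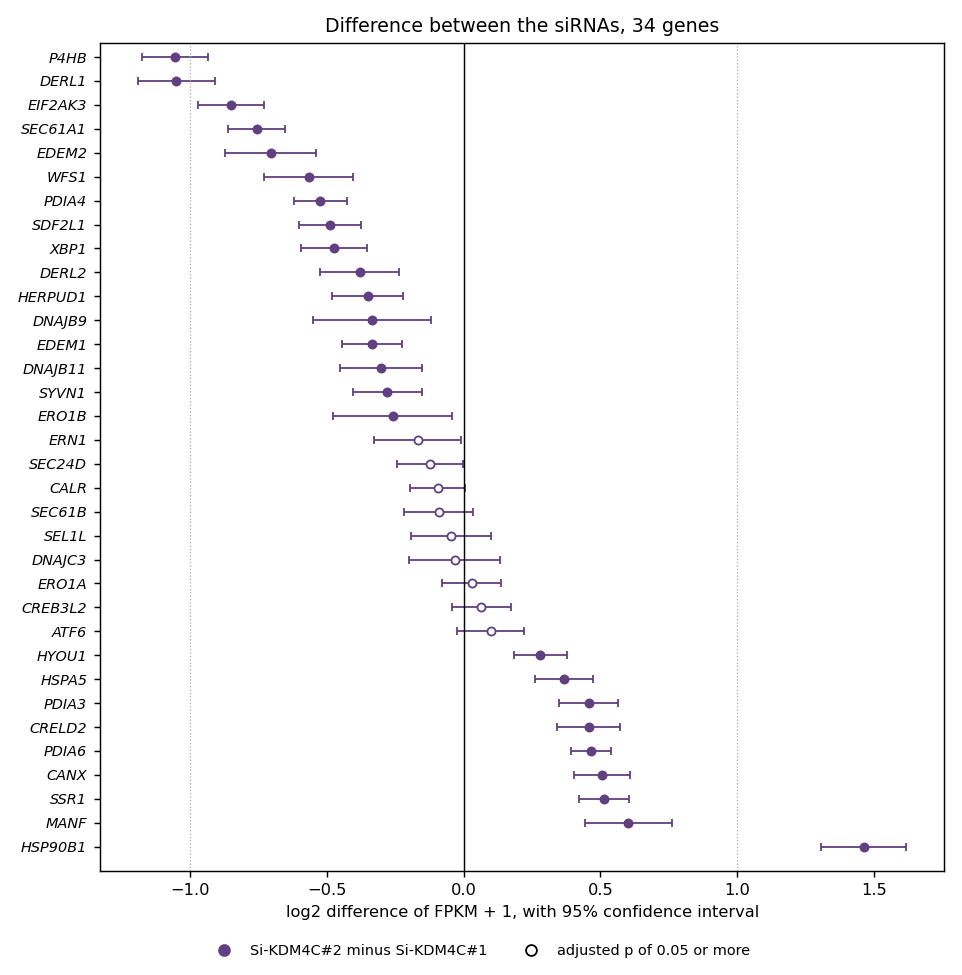
Log2 difference of FPKM + 1 between the siRNAs, Si-KDM4C#2 minus Si-KDM4C#1 (horizontal axis, limma-trend, bars are 95% confidence intervals), for the 34 tested members in order of the difference, with dotted lines at a 2-fold difference. Open circles did not pass the test, and the ends are P4HB at -1.05 and HSP90B1 at 1.46.

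Other genes of the same pathways were taken from 6 lists of 109 genes, of which 107 were tested. The lists were chosen with earlier results of these data known, so their counts are descriptive only. With Si-KDM4C#1 53 rose and 40 fell (31.7% and 33.9% of all genes tested), and with Si-KDM4C#2 38 rose and 45 fell (34.4% and 25.0%). The listed genes of the branch downstream of PERK, in which ATF4 and DDIT3 (CHOP) drive amino acid synthesis and cell death genes, were mostly higher with Si-KDM4C#1. The activity of PERK was not measured, and whether it had a part in these changes was not tested. Of the 16 genes, 12 rose and 4 fell (31.7% and 33.9% of all genes tested), with a median log2 difference of 0.88. The 4 that fell, named here after their values were seen, were VLDLR (-1.19), PPP1R15B (-0.21), EIF2S1 (-0.18) and NFE2L2 (-0.13), and these fell with Si-KDM4C#2 too (-0.40, -0.34, -0.13 and -0.14). With Si-KDM4C#2 6 rose and 6 fell (34.4% and 25.0% of all genes tested), with a median of 0.13. Over 2-fold, 8 rose and 1 fell with Si-KDM4C#1 (4.04% and 4.83% of all genes tested). With Si-KDM4C#2 3 rose and 0 fell over 2-fold (2.6% and 2.3%).

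ATF4, the transcription factor of the branch, was at 65.1, 68.1 and 70.1 FPKM in Scramble, 171, 173 and 181 under Si-KDM4C#1 and 136, 141 and 141 under Si-KDM4C#2 (2.56-fold and 2.04-fold higher, adjusted p = 1.06e-08 and 6.53e-08). Its target TRIB3, a pseudokinase, was at 8.90 to 9.59 FPKM in Scramble, 55.7 to 57.2 with Si-KDM4C#1 and 38.4 to 38.8 with Si-KDM4C#2 (log2 differences 2.47 and 1.93, adjusted p = 5.59e-10 and 3.17e-09). PPP1R15A (GADD34), the phosphatase subunit that ends the signal of PERK, was at 5.30 to 5.65 FPKM in Scramble, 9.35 to 10.4 with Si-KDM4C#1 and 7.24 to 8.21 with Si-KDM4C#2 (0.76 and 0.42, adjusted p = 2.4e-06 and 0.00018). These genes were higher in all 6 knockdown libraries than in any Scramble library.

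ATF3, a stress-induced transcription factor, rose with Si-KDM4C#1, from 3.75, 3.70 and 3.71 FPKM in Scramble to 15.7, 18.8 and 17.4 (log2 difference 1.95, adjusted p = 1.83e-08), and was at 4.18, 3.94 and 4.37 FPKM with Si-KDM4C#2 (0.13, adjusted p = 0.118). The direct difference between the siRNAs was -1.82 (adjusted p = 3.06e-08). DDIT3 was at 5.71 to 8.42 FPKM in Scramble, 13.6 to 18.0 with Si-KDM4C#1 and 7.23 to 9.06 with Si-KDM4C#2, which overlaps Scramble (1.03, adjusted p = 0.000123, and 0.20, adjusted p = 0.234). CHAC1, which degrades glutathione, was at 2.84 to 4.54 FPKM in Scramble, 15.2 to 18.5 with Si-KDM4C#1 and 5.50 to 5.89 with Si-KDM4C#2 (1.98 and 0.56, adjusted p = 5.52e-07 and 0.00308). ASNS, the asparagine synthetase, was low, at 0.589 to 0.758 FPKM in Scramble, 1.45 to 1.58 with Si-KDM4C#1 and 0.620 to 0.960 with Si-KDM4C#2 (0.59, adjusted p = 0.000925, and 0.12, adjusted p = 0.347).

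**Figure D5:**
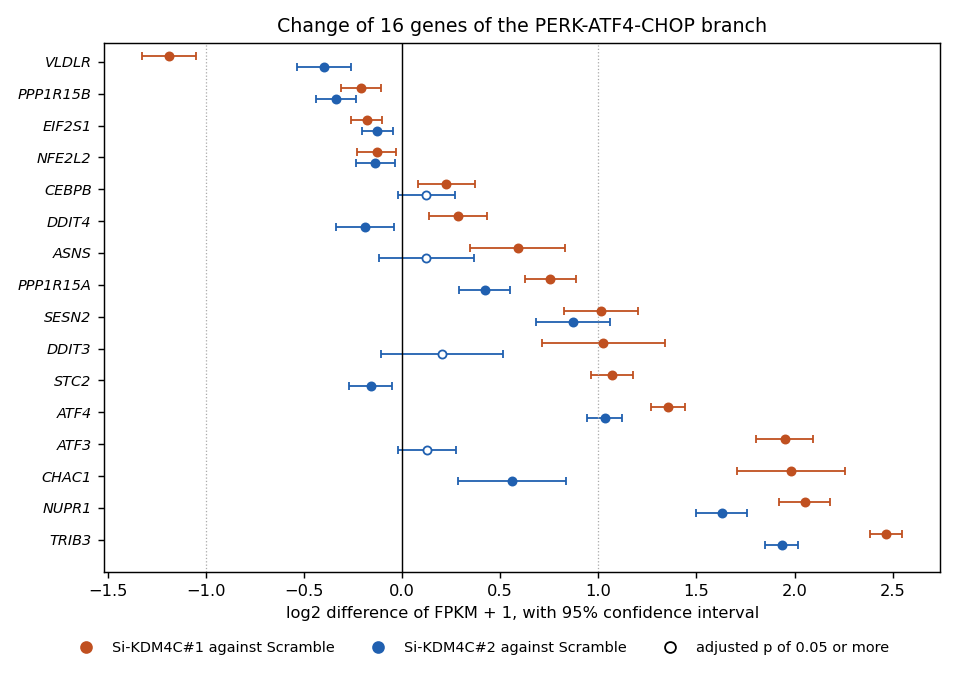
Log2 difference of FPKM + 1 from Scramble (horizontal axis, limma-trend, bars are 95% confidence intervals) for the 16 genes of the PERK-ATF4-CHOP list, in order of the difference with Si-KDM4C#1 (orange), with Si-KDM4C#2 in blue, open circles where the test was not passed and dotted lines at a 2-fold change. TRIB3 is highest with both siRNAs, at 2.47 and 1.93, and ATF3 is at 1.95 with Si-KDM4C#1 and 0.13 under Si-KDM4C#2.

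The other 5 lists did not share 1 direction. For comparison, 31.7% of all genes tested rose and 33.9% fell with Si-KDM4C#1, and 34.4% rose and 25.0% fell with Si-KDM4C#2. Of 13 tested signalling factors and proteolytic activators 5 rose and 6 fell with Si-KDM4C#1 and 4 rose and 6 fell with Si-KDM4C#2. CREB3, a further ER-bound transcription factor, was at 10.8 to 11.9 FPKM in Scramble, 23.3 to 25.2 with Si-KDM4C#1 and 16.5 to 17.6 with Si-KDM4C#2 (log2 differences 1.04 and 0.55, adjusted p = 1.02e-07 and 9.06e-06), and ATF6B, the paralog of ATF6, was at 26.6 to 29.4, 23.5 to 26.7 and 28.4 to 30.5 FPKM (-0.16, adjusted p = 0.0343, and 0.05, adjusted p = 0.429, or -0.15, adjusted p = 0.0225, with the adjustment for GC content). Of 23 folding and glycan-trimming factors 14 rose and 7 fell with Si-KDM4C#1 and 12 rose and 7 fell with Si-KDM4C#2. The median log2 differences of this list were 0.22 and 0.20, against -0.032 and 0.057 for all genes tested. The part of GC content in these medians was not tested. The thioredoxin-like ERP44, which retains oxidases in the early secretory pathway, was at 6.93 to 7.44 FPKM in Scramble, 11.3 to 12.3 with Si-KDM4C#1 and 5.33 to 5.83 with Si-KDM4C#2, up and down like P4HB (0.63 and -0.34, adjusted p = 3.53e-06 and 0.000357). ERP29 was at 40.9 to 48.6, 38.9 to 42.0 and 60.2 to 62.6 FPKM (-0.17 and 0.44, adjusted p = 0.0328 and 0.000159).

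Of 18 further degradation factors 8 rose and 8 fell with Si-KDM4C#1 and 4 rose and 7 fell with Si-KDM4C#2. VCP, the ATPase that pulls proteins out of the ER, was at 70.3 to 73.9, 72.8 to 74.0 and 63.6 to 64.8 FPKM (log2 differences 0.03, adjusted p = 0.483, and -0.16, adjusted p = 0.00163). The former changed sign with the scaling, at -0.17 (adjusted p = 0.00081) with quantile normalization and 0.11 (adjusted p = 0.0271) with size factors. Its cofactor UFD1 was at 6.09 to 6.31, 9.85 to 10.7 and 6.05 to 7.00 FPKM (0.64, adjusted p = 7.2e-06, and 0.05, adjusted p = 0.472). Of 20 further subunits of the translocon, the oligosaccharyltransferase and the signal peptidase 8 rose and 7 fell with Si-KDM4C#1, and 5 rose and 10 fell with Si-KDM4C#2. SEC62, a translocon partner, fell with Si-KDM4C#2 and was at 15.6 to 16.6, 15.2 to 16.5 and 7.63 to 8.22 FPKM (-0.93, adjusted p = 2.91e-07, and with Si-KDM4C#1 -0.01, or 0.28, adjusted p = 0.000118, with the adjustment for GC content). SEC61G was at 84.5 to 98.3, 72.9 to 83.0 and 55.8 to 64.3 FPKM (-0.25 and -0.58, adjusted p = 0.0139 and 0.000135, the former turning to 0.039 with the adjustment for GC content). Of 17 factors of vesicle coats and retrieval 6 rose and 8 fell with Si-KDM4C#1 and 7 rose and 9 fell with Si-KDM4C#2. The coat paralogs SEC23A and SEC23B parted with Si-KDM4C#2: SEC23A was at 18.1 to 18.9, 15.9 to 16.3 and 22.3 to 23.2 FPKM in Scramble, Si-KDM4C#1 and Si-KDM4C#2 (-0.18 and 0.30, adjusted p = 0.00175 and 7.22e-05, the former turning to 0.10, adjusted p = 0.0255, with the adjustment for GC content), and SEC23B at 24.5 to 26.2, 18.1 to 19.5 and 10.05 to 11.001 FPKM (-0.41 and -1.19, adjusted p = 4.7e-05 and 8.95e-08).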

How the data were processed

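The 9 libraries were sequenced from total RNA. The submitters' processing notes name FastQC 0.11.5, HISAT2 2.1.0, StringTie 1.3.3b, featureCounts, DESeq 1.28.0 and the build GRCh38, with no roles given. Each deposited list holds the FPKM of 1 library as the authors computed them, and no scaling between libraries is stated in the sources used here. Multiplied by GENCODE 29 exon lengths and a fitted total per library, the values of 32080 of 32847 matched genes were whole numbers of fragments (within 0.05) in every library. Genes whose mean reached 1 FPKM in 1 or more groups were compared on log2(FPKM + 1) with limma-trend (limma 3.58.1, R 4.3.3), without covariates, and P-values were adjusted over all 14363 genes. A call required an adjusted p under 0.05 and, where stated, a fold change over 2, the limits named in the study's methods. The fit was also run on simulated data as a check of the code, and no result given here rests on that run. Alternatives were quantile normalization, median-ratio size factors, a pseudocount of 0.1, other filters, only the libraries compared, a block for the replicate number, limma voom on recovered fragments, a GC adjustment (lowess, 14343 genes), each library left out and a limit of 1.5-fold. All members were named, with ATF4, DDIT3, TRIB3, ASNS, PPP1R15A, ATF3 and CHAC1 of the PERK-ATF4-CHOP list and the first 2 genes of each other list. Members and lists were chosen with earlier results of these data known. Python 3.11.15 was used for joins, promoter searches and plots. Pairs of libraries within a group differed by more than counting error, with a chi-square of 2.67 to 6.31 per degree of freedom.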

Additional observations from a re-analysis of the deposited data

Results flagged for a closer look

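For 25 members the effect of the siRNAs differed between Si-KDM4C#1 and Si-KDM4C#2 by the direct test (limma-trend, adjusted p under 0.05). The same was seen for 62.4% of all genes tested. Among the 25 members the log2 difference, Si-KDM4C#2 minus Si-KDM4C#1, was negative for P4HB (-1.05), DERL1 (-1.05), EIF2AK3 (-0.85), SEC61A1 (-0.76), EDEM2 (-0.71), WFS1 (-0.57), PDIA4 (-0.52), SDF2L1 (-0.49), XBP1 (-0.47), DERL2 (-0.38), HERPUD1 (-0.35), DNAJB9 (-0.34), EDEM1 (-0.33), DNAJB11 (-0.30), SYVN1 (-0.28) and ERO1B (-0.26). It was positive for HYOU1 (0.28), HSPA5 (0.37), PDIA3 (0.46), CRELD2 (0.46), PDIA6 (0.47), CANX (0.50), SSR1 (0.51), MANF (0.60) and HSP90B1 (1.46). For EIF2AK3, P4HB, PDIA4, EDEM2 and SEC61A1 the siRNAs moved the mRNA in opposite directions from Scramble.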

How the results depend on the processing

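Over all alternatives the counts of members that rose or fell with each siRNA stayed within 1.5 times the reported counts. With a limit of 1.5-fold in place of 2-fold, 8 members changed with Si-KDM4C#1, 10 with Si-KDM4C#2 and 7 between the siRNAs (28.0%, 20.1% and 23.4% of all genes tested). With limma voom, 2 of 33 members changed over 2-fold with Si-KDM4C#2, DERL1 and EDEM1 (-1.04). Of the 16010 genes in that fit, 873 rose and 1120 fell over 2-fold. The median log2 change of the members with Si-KDM4C#1 was -0.16 with quantile normalization, -0.019 with median-ratio size factors, -0.037 with limma voom and 0.025, of the other sign, with the GC adjustment. With Si-KDM4C#2 it was -0.45 with quantile normalization and -0.43 with limma voom. Between the siRNAs it was -0.25 with quantile normalization, -0.25 with size factors, -0.19 with a pseudocount of 0.1, -0.37 with limma voom, -0.21 with the GC adjustment and -0.16 to -0.12 with each library left out. SEC61G and SEC23A with Si-KDM4C#1 were at 0.039 and 0.10 (adjusted p = 0.664 and 0.0255) with the GC adjustment, of the other sign. For single members, 863 values over the alternatives kept their direction and side of the threshold, 36 came to pass the test and 16 no longer passed it, and with a library left out these numbers were 592, 6 and 14. ATF6B and ERP29, whose falls with Si-KDM4C#1 were small, did not pass the test under 8 alternatives each (adjusted p = 0.0526 to 0.166 and 0.0629 to 0.17), and SEC61G did not without Scramble replicate 3 or Si-KDM4C#1 replicate 2 (-0.21 and -0.22, adjusted p = 0.0529 and 0.0525). The difference of ERO1B between the siRNAs did not pass without Si-KDM4C#1 replicate 2 or Si-KDM4C#2 replicate 2 or 3 (-0.26 to -0.17, adjusted p = 0.0772 to 0.141). It was also lost with no filter on low genes and with the libraries of the comparison alone (-0.26 each, adjusted p = 0.0983 and 0.0539). The rise of CHAC1 with Si-KDM4C#2 was 0.25 (adjusted p = 0.0681) with the GC adjustment. The causes were not tested. The replicate numbers did not pair the libraries (mean correlation of deviations 0.0162 over 9 pairs of the same number and -0.00808 over 18 of different numbers), and with the number as a block 11 members rose and 15 fell with Si-KDM4C#1 and 5 rose and 24 fell with Si-KDM4C#2, as reported. Limma voom covered 33 of the 34 tested members, without MANF, whose values did not come out whole. The floor of 3 fragments, 0.166 to 0.206 FPKM for 1 kb of exon, limits DERL3 and covers counting error only.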
